A study of Drosophila melanogaster with 2 samples.

Results

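The Dpr and DIP genes encode neuronal surface proteins, and their Groucho regions were taken from ChIP-seq of fruit fly (Drosophila melanogaster) embryos. All protein-coding genes named dpr with a number or DIP- with a suffix in the dm6 annotation were taken, which gave 32 genes, 21 Dpr and 11 DIP, of 13945 protein-coding genes. The naming rule uses no measured value. For each gene, regions were counted inside it or within 5 kb of its ends, a stretch called its window here. Whole embryos of both sexes, collected over 0 to 24 h, were used from a transgenic line whose gro protein ends in a C-terminal GFP, and the chromatin was pulled down through that GFP. All samples are of this 1 group, as biological replicates 1 and 3. The labels name no other genotype, treatment or time. They do not say whether untagged gro was also present in the line.

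The deposited lists hold 30000 regions called from both replicates pooled, 30000 from each replicate alone, and 4492 regions selected by the irreproducible discovery rate (IDR), called IDR peaks below. The pooled list is labelled as peaks and background, the input for IDR. Its regions outside the IDR peaks, above all those near its floor, can therefore be background rather than Groucho sites. The 4492 IDR peaks are all members of the pooled list. Pooled signal, the authors' own value per region with no stated scale, ran from 21.4 to 1892 over the pooled list and from 80.6 upward among IDR peaks. Pooled and replicate signals are on different scales, so the values of replicates 1 and 3 are given beside the pooled one, and positions are dm6. The sequencing depth is unknown, because the lists hold no read counts. No immunoprecipitation from untagged embryos was analysed here, and in whole embryos a site held in few cells cannot be told apart from a weak site held in many.

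Groucho is a corepressor with no DNA binding of its own. It is brought to chromatin by repressors such as Hairy, the E(spl) proteins and Brinker. Dpr proteins (named for defective proboscis extension response, the phenotype of dpr1) and DIP proteins (Dpr-interacting proteins) carry immunoglobulin domains on the surface of neurons. A Dpr on one neuron binds its DIP partner on another, each DIP prefers certain Dprs, and neighbouring neuron types express different members. The pairs act in synaptic partner choice, neuron survival and axon and dendrite targeting, best studied in the optic lobe and at the neuromuscular junction. In the embryo many of the genes are expressed in the developing nervous system. The groups used below are an approximate background grouping by such pairings, and the placing of dpr16, dpr17 and dpr18 is the least certain.

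The Dpr and DIP genes held few Groucho regions for their size, and 6 of the 8 IDR peaks in their windows lay closest to the start of another gene. Of the 32 genes, 5 had an IDR peak in the window (DIP-alpha, DIP-iota, dpr14, dpr19 and dpr20), or 15.6%, where 50.2% of all protein-coding genes did. An IDR summit within 1 kb of an own transcription start site (TSS) was found for 3 genes (dpr14, dpr19 and dpr20), or 9.38%, against 25.9% of all genes. Only dpr20 and DIP-alpha were the gene of the protein-coding TSS nearest to an IDR summit, 6.25% of the 32 against 22.5% of all genes. IDR peaks inside a gene body were found at DIP-alpha alone among the 32 (3.12%), against 23.4% of all genes and 50.1% of genes of 20 kb or more. These shares are descriptions of a list of genes and were not tested.

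Most of these genes are long. The median Dpr or DIP gene spans 32.5 kb, from 3.74 kb for dpr19 to 379 kb for DIP-lambda, against a median of 2.17 kb over all protein-coding genes. Among the 1013 protein-coding genes of 20 kb or more, 63.5% had an IDR peak in the window, 41.2% had one with its summit within 1 kb of a TSS, and 48.3% were nearest to an IDR summit by TSS. Of the 18 Dpr and DIP genes of that size, DIP-alpha alone had an IDR peak in its window (5.56%), and 0 had a summit at most 1 kb from a TSS. Of the 14 under 20 kb, 4 (28.6%) had an IDR peak in the window, against 50.2% of all protein-coding genes. A summit within 1 kb of a TSS was found for 3 of these 14 (21.4%), nearer to the 25.9% of all genes. The merged windows of the 32 genes cover 1896 kb and held 89 pooled regions, or 4.69 per 100 kb, and 8 IDR peaks, or 0.422 per 100 kb. The windows of all protein-coding genes held 25.7 pooled regions and 3.92 IDR peaks per 100 kb, and those of genes of 20 kb or more held 22.9 and 2.87. Single windows of small genes were above 25.7 at dpr19 (72.8), dpr14 (54.9), dpr18 (48.3), dpr7 (37.0) and DIP-iota (34.3). Those of all other Dpr and DIP genes were below it. DIP-lambda and dpr21, of 379 and 125 kb, held 0 regions, and both lie in a stretch of 2R without any pooled region. Without both, a setting added after seeing the data, the density was 6.49 pooled regions per 100 kb.

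**Figure D1:**
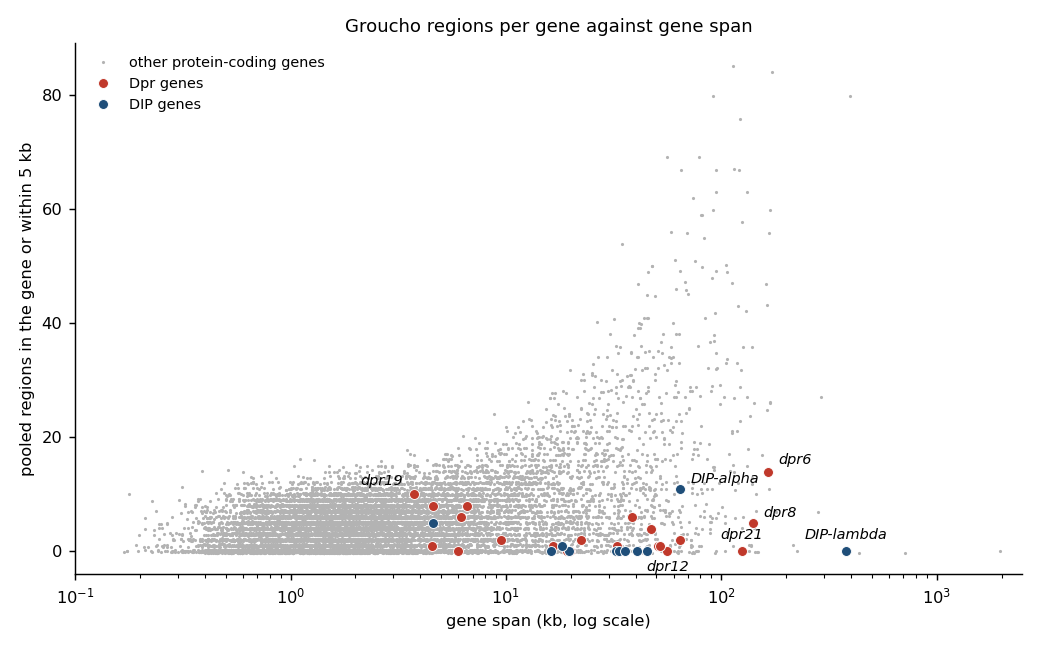
Pooled Groucho regions in each protein-coding gene or within 5 kb (vertical axis) against the gene's span in kb (horizontal axis, log scale). Each point is a gene, with grey points moved slightly up or down to separate them. Dpr and DIP genes, in red and blue, held 0 to 14 regions while the highest gene held 85.

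More of the Dpr genes than of the DIP genes held a pooled region. A pooled region lay in the window of 16 of 21 Dpr genes (76.2%) and of 3 of 11 DIP genes (27.3%), where 77.3% of all genes and 90.5% of genes of 20 kb or more held one. Of the 18 Dpr and DIP genes of 20 kb or more, 10 (55.6%) did. In the list of replicate 1 alone 15 Dpr and 4 DIP genes (71.4 and 36.4%) held a region, against 78.9% of all genes. In that of replicate 3 alone 16 and 6 (76.2 and 54.5%) did, against 80.5% of all genes. The families thus lay closer together in the replicate lists. Per length the Dpr windows held 6.56 regions per 100 kb and the DIP windows 2.13. Without dpr21 the Dpr windows held 7.47, and without DIP-lambda the DIP windows held 4.16. A pooled summit lay within 1 kb of an own TSS at 12 Dpr genes and 2 DIP genes, together 43.8% of the 32, against 57.3% of all genes. By the nearest protein-coding TSS, 13 Dpr and 3 DIP genes owned at least 1 pooled summit, 50.0% against 57.0% of all genes. The difference between the families was not tested. The DIP genes are also the longer set, with a median of 33.6 kb against 22.3 kb.

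**Figure D2:**
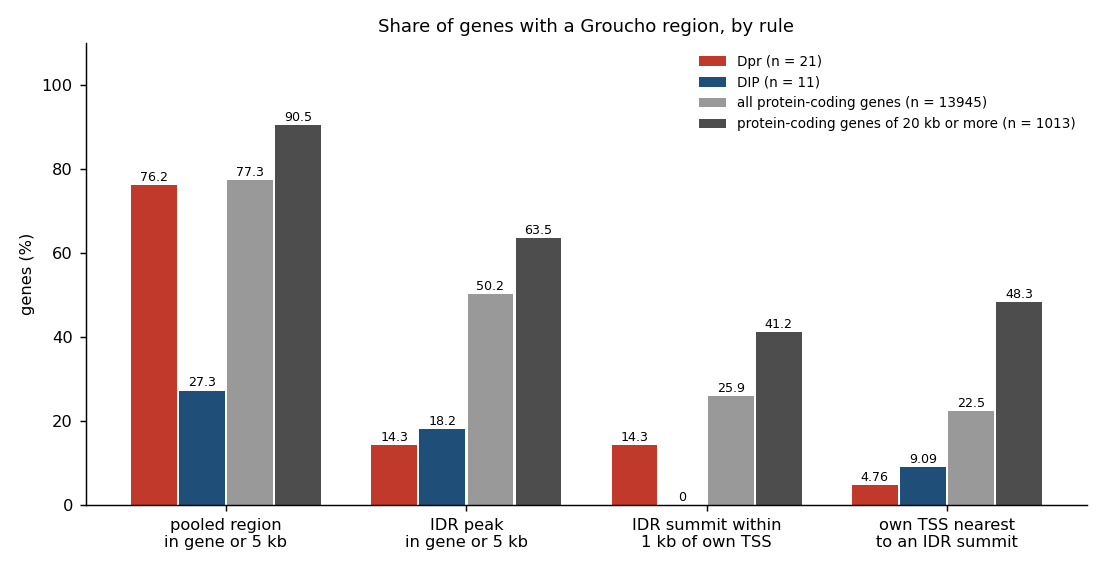
Percentage of genes (vertical axis) with a Groucho region under 4 rules, for Dpr genes, DIP genes, all protein-coding genes and protein-coding genes of 20 kb or more. For IDR peaks in the window, 14.3% of Dpr and 18.2% of DIP genes stand beside 50.2% of all genes.

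The regions present were ordinary for the pooled list in their median signal, while a smaller share of them were IDR peaks. Their median pooled signal was 36.8, against 37.0 over all 30000 regions, and 8 of the 89 (8.99%) were IDR peaks, against 15.0% of the whole list. Of the 89, 59 (66.3%) overlapped a region in both replicate lists, against 70.9% of all pooled regions, and 5 overlapped none in either. Inside the genes lay 40 summits, of which 33 were in introns, 4 in 5′ UTRs, 2 in 3′ UTRs and 1 in coding sequence. Another 34 lay upstream and 15 downstream. A protein-coding TSS of a Dpr or DIP gene was the nearest for 28 of the 89 summits, and that of another gene for 61. Even of the 40 summits inside a Dpr or DIP gene, 23 were nearest to the TSS of another gene, often one nested in an intron.

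**Figure D3:**
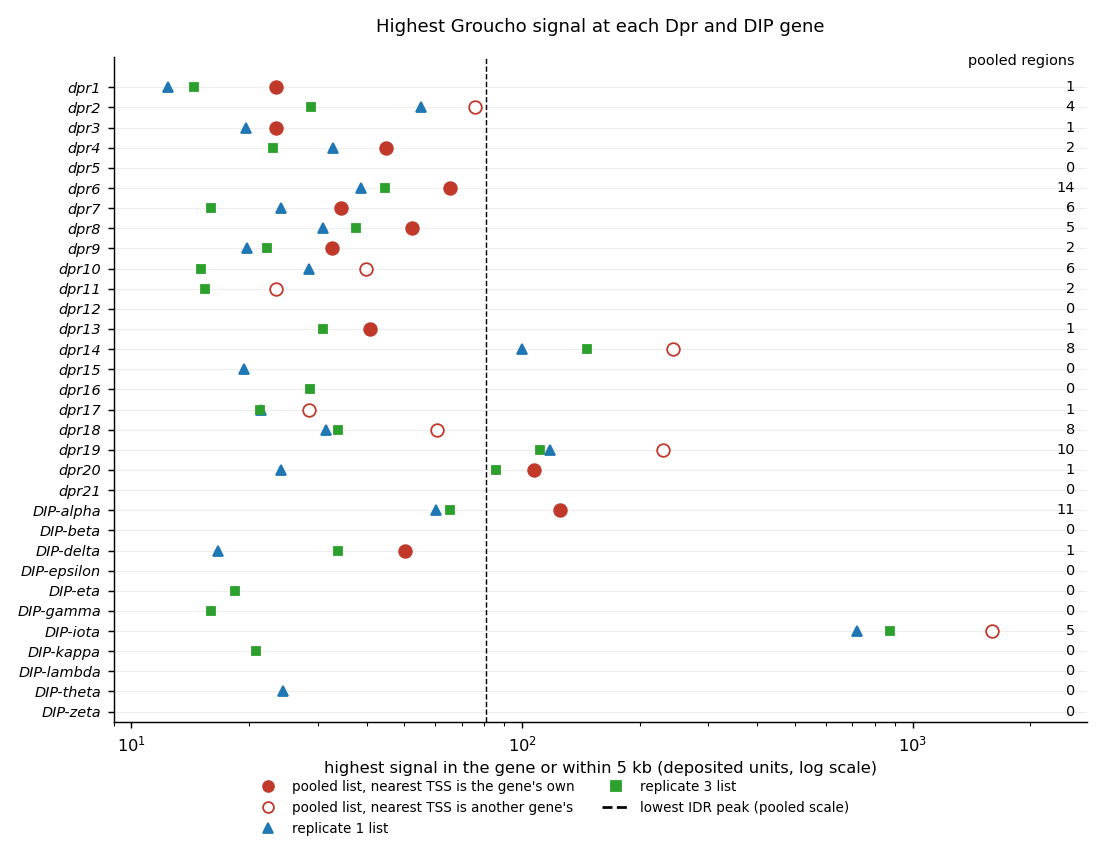
Highest signal in each Dpr and DIP gene or within 5 kb (horizontal axis, deposited units, log scale) in the pooled list (circles), the replicate 1 list (triangles) and the replicate 3 list (squares), with the number of pooled regions at the right. Filled circles mark regions nearest to the gene's own TSS; beyond the lowest IDR peak at 80.6 (dashed, pooled scale) lie dpr14, dpr19, dpr20, DIP-alpha and DIP-iota, of which dpr20 and DIP-alpha are filled.

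DIP-alpha, the receptor that pairs with dpr6 and dpr10 on motor neurons and in the medulla, was the only gene of both families with an IDR peak inside it. The peak lies on the X from 3538711 to 3539120, in the third intron, 32.7 kb from the first TSS and 8251 bp upstream of an internal TSS. No protein-coding TSS is closer than that internal one; the start of a noncoding gene within DIP-alpha, lncRNA:CR34335, is 7194 bp away. Its signal was 60.1 in replicate 1 and 65.5 in replicate 3, or 62.8 ± 3.84 (SD, n = 2), and 125 in the pooled list. It ranked 2062 and 2082 in the replicate lists, so both replicates placed it almost equally, and 1860 in the pooled list. The sequence around the summit is shown because it is the site most clearly DIP-alpha's own. It is taken from chrX:3538816-3539016, plus strand of RefSeq Release 6 (dm6), which is opposite to the strand of the gene, and the capitals mark the letters TGGGAA, the core of the Su(H) site:
DIP-alpha intron: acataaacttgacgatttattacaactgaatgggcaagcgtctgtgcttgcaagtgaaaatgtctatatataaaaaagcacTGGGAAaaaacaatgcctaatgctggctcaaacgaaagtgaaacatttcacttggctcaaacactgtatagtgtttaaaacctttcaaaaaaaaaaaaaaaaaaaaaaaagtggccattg
The match begins 19 bp before the summit. These letters occur, on either strand, in 10.7% of windows of the same length at all IDR peaks. Among the 8 IDR peaks here, this is the only window that holds them. The stretch also holds a run of 24 A, and runs of a single base that long occur in 3 of the 4492 windows at IDR peaks (0.0668%).

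The other 10 regions in the DIP-alpha window were lower. The highest of them lies in the first intron, 1180 bp from the first TSS, with a signal of 74.0 in the pooled list, 32.7 in replicate 1 and 41.5 in replicate 3. It is nearest to the 5′ end of a transcript of ppk8, an ion channel subunit gene that overlaps the start of DIP-alpha, at 965 bp. With a signal of 74.0 it stood just below the IDR list, whose lowest peak had 80.6. A region 356 bp inside the gene had a pooled signal of 26.3 and was matched in replicate 1 alone. The intronic regions farther in had pooled signals between 22.1 and 41.5, and those outside the gene, nearest to Gas8, CG2875 and AstA-R1, had 36.8, 42.6 and 22.3.

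The DIP-alpha partners dpr6 and dpr10 lie next to each other on 3L, 8093 bp apart, and held 14 and 6 pooled regions with 0 IDR peaks. Near its TSS, dpr6 had a region 455 bp upstream with a pooled signal of 56.2, and with 25.3 in replicate 1 and 25.7 in replicate 3. Its highest region lies in the first intron, 5393 bp into the gene (3L, 9979839 to 9980248), with a pooled signal of 65.4, 19.9 in replicate 1 and 44.6 in replicate 3, or 32.3 ± 17.5 (SD, n = 2). Replicate 3 was thus the higher there, whereas the replicates hardly differed at the upstream region. A group of 5 regions deep in intron 6, with pooled signals from 36.5 to 54.9, is nearest to the starts of the nested genes CG14160, CG32053 and CG32054. The 3 regions farthest upstream are nearest to CG6674 and CG42455. In dpr10, 2 regions in the first intron, 586 and 811 bp from the TSS, had pooled signals of 29.7 and 39.6. The other 4 lie in intron 2, nearest to the nested gene CG6628, and had pooled signals from 25.7 to 39.8. The first intron site of dpr6 is printed beside that of DIP-alpha as the highest region of its partner (chr3L:9979944-9980144, plus strand, which is that of the gene; capitals mark GAGAG, the GAGA factor core, and TGGGAA read on the minus strand):
dpr6 intron: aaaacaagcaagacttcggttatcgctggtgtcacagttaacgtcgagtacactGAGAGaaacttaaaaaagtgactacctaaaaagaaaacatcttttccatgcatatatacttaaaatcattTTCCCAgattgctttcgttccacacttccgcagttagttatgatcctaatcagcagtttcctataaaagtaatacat
GAGAG was present in 25.3% and TGGGAA in 11.7% of windows of that length at all 30000 pooled regions.

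**Figure D4:**
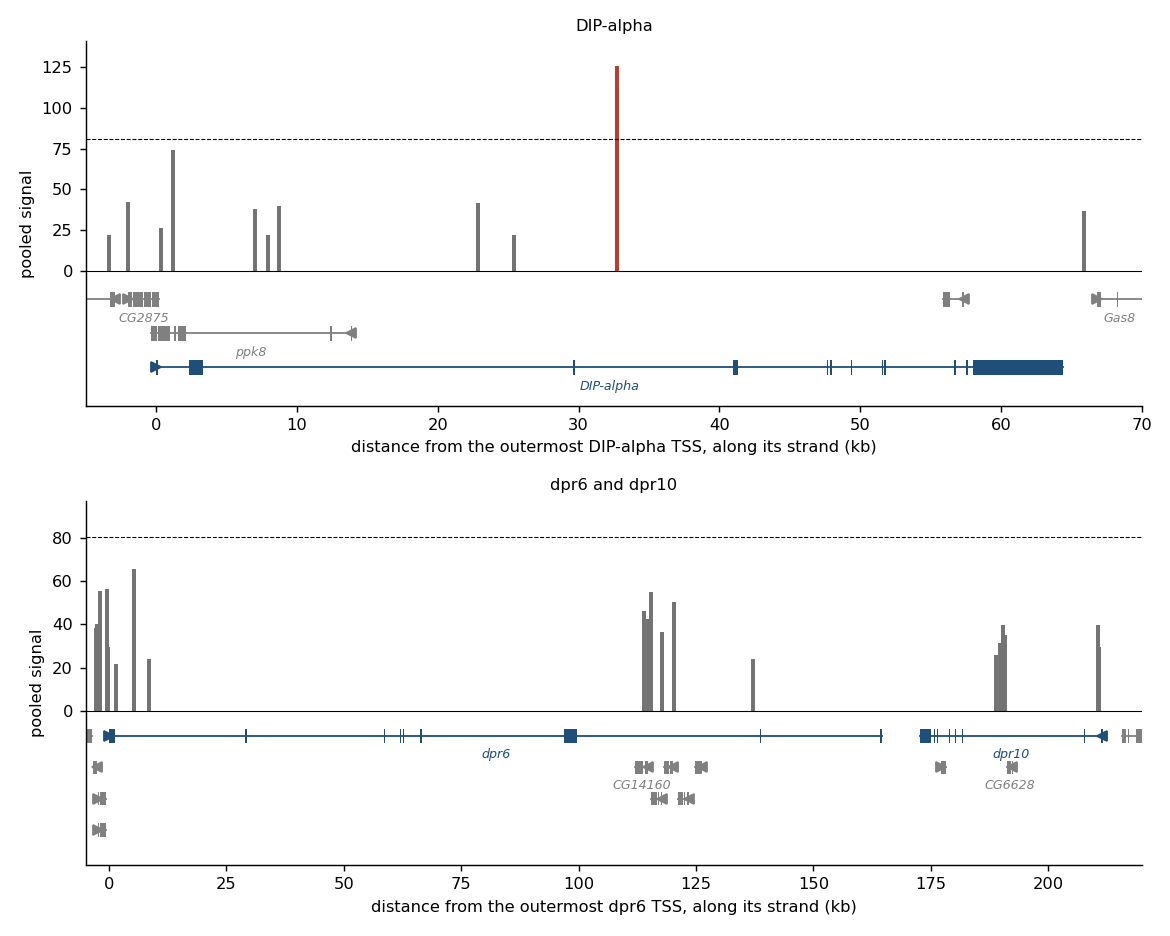
Pooled signal of every pooled region (vertical bars; red for IDR peaks, grey for others) along DIP-alpha (top) and along dpr6 and dpr10 (bottom), by distance in kb from the outermost TSS of DIP-alpha and of dpr6. Gene models lie below, Dpr and DIP genes in blue and others in grey, boxes for exons and arrowheads at starts; the dashed line is the lowest IDR peak at 80.6, which the DIP-alpha intronic peak at 125 alone passes.

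The group placed with DIP-epsilon and DIP-zeta (dpr13, dpr14, dpr18, dpr19 and dpr20) held 6 of the 8 IDR peaks, at dpr14, dpr19 and dpr20, which are small genes of 3.74 to 4.58 kb. These are 3 of its 7 genes, where 50.2% of all protein-coding genes had an IDR peak in the window. Of the 6 peaks, only that at dpr20 was nearest to a TSS of the group. At dpr20 the IDR peak lies on 3L from 857628 to 858037, 585 bp upstream of the TSS, in sequence that no other gene covers, and it is the only IDR peak within 1 kb of a Dpr or DIP start that is nearest to that start. Its signal was 24.2 in replicate 1 and 85.8 in replicate 3, or 55.0 ± 43.5 (SD, n = 2), and 107 in the pooled list. It ranked 11899 in replicate 1 and 1187 in replicate 3, so its height rests on replicate 3. Among the 4492 highest regions of replicate 1 alone, dpr20 had none. The sequence is shown as the family's own promoter-proximal site (chr3L:857733-857933, plus strand, opposite to the gene; capitals mark GGCGCC, the Brinker core, and GAGAG read on the minus strand):
dpr20 upstream: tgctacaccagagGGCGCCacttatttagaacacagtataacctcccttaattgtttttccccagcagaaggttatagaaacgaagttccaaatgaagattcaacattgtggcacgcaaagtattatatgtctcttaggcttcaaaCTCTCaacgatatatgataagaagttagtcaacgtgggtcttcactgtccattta
GGCGCC begins 87 bp before the summit and occurs in 4.01% of windows of that length at all IDR peaks, and GAGAG occurs in 28.3%.

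At dpr14 and dpr19 the IDR peaks lay closer to neighbours. The peak 474 bp upstream of dpr14 (X, 7908671 to 7908776) had signals of 99.8 in replicate 1 and 147 in replicate 3, or 123 ± 33.3 (SD, n = 2), and 244 in the pooled list. It lies between dpr14 and the divergent gene spidey, which encodes a steroid and fatty acid metabolic enzyme, and its summit is 171 bp from the spidey TSS. The other dpr14 peak (X, 7901189 to 7901300, pooled signal 131, 62.8 in replicate 1 and 76.0 in replicate 3) lies 64 bp from the TSS of the ribosomal protein gene RpS6, beyond bys. The start of CR33222, which is not a protein-coding gene, is closer to that peak, at 35 bp. The peak 346 bp upstream of dpr19 (2L, 10375617 to 10376026) had signals of 57.1 and 55.3 in replicates 1 and 3, or 56.2 ± 1.27 (SD, n = 2), and 116 in the pooled list. It is 65 bp from the TSS of the divergent gene CG33303. The others in the dpr19 window were 158 bp from the TSS of rho-5, with 83.2 in the pooled list, and 157 bp from that of CG5096, with 229. In replicates 1 and 3 these had 44.3 and 40.5, and 118 and 111. At the 3 dpr19 peaks the replicates thus differed little, unlike at dpr20. Exon-free stretches around these 2 summits are shown, since each summit lies between the starts of a divergent pair (plus strand; for dpr19 this is the strand of the gene, cut where the exons of CG33303 begin; for dpr14 it is the opposite strand, and capitals mark AGATAA, the core bound by Serpent and its relatives, read on the minus strand):
dpr14 and spidey, chrX:7908660-7908860: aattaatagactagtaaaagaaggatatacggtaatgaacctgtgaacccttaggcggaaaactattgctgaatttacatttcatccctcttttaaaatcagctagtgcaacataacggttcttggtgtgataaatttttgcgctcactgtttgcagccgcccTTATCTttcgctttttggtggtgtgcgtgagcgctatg
dpr19 and CG33303, chr2L:10375758-10375922: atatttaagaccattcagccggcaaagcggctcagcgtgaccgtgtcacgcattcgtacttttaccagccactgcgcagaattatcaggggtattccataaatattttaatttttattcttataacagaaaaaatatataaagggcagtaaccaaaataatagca
AGATAA was present in 12.8% of windows at all IDR peaks, and the dpr19 stretch holds none of the 12 searched motifs.

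**Figure D5:**
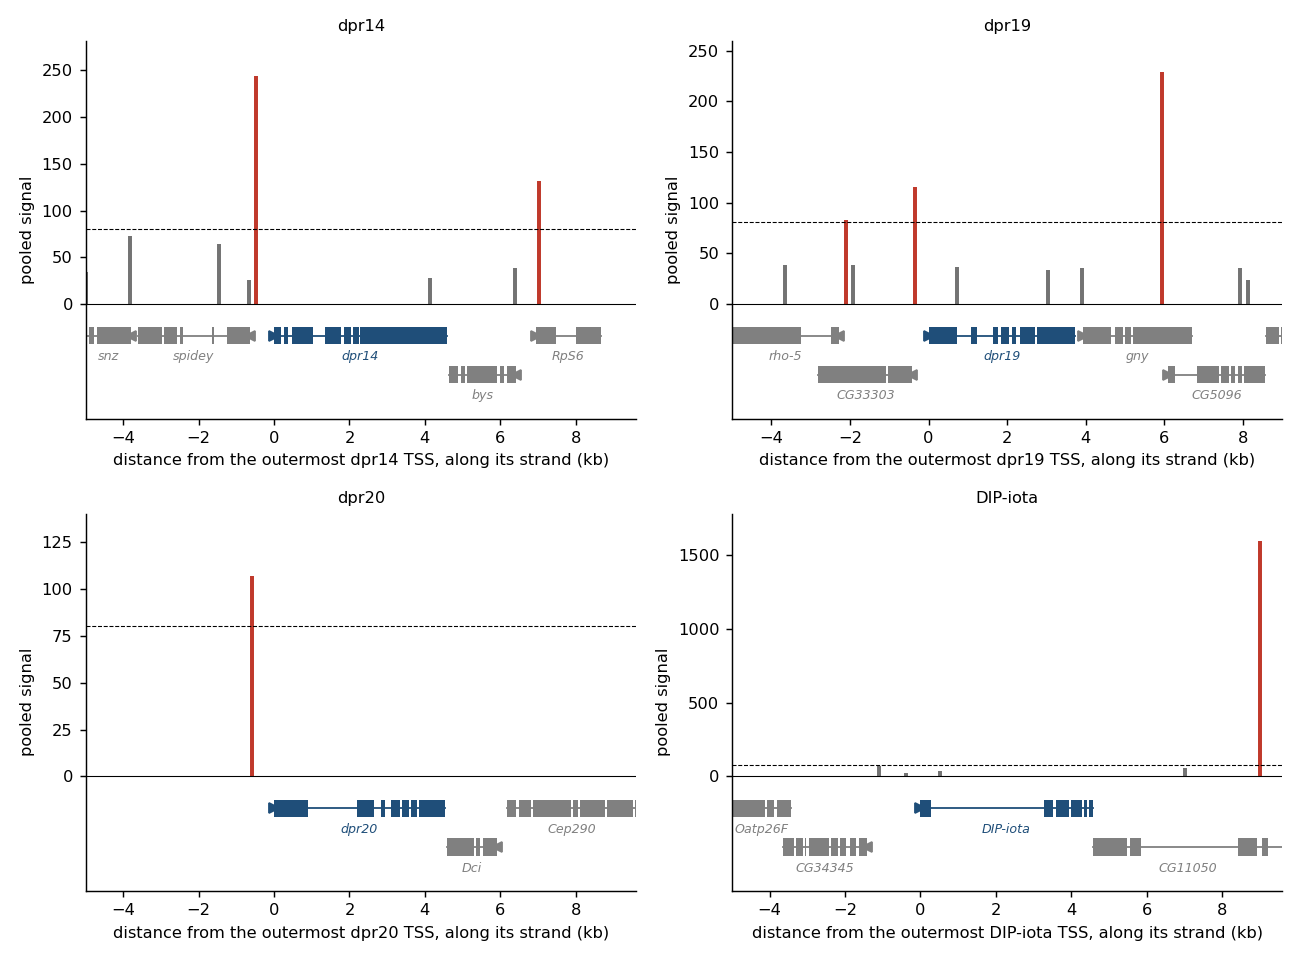
Pooled signal of pooled regions (vertical bars; red for IDR peaks, grey for others) around dpr14, dpr19, dpr20 and DIP-iota, by distance in kb from the outermost TSS of each, with gene models below (Dpr and DIP genes blue, others grey). The highest peaks at dpr14 (244), dpr19 (229) and DIP-iota (1599) are nearest to the starts of spidey, CG5096 and CG11050, and the peak at dpr20 (107) to its own; red bars are at or above the dashed line at 80.6.

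The rest of that group had pooled regions and no IDR peak, or no region. At dpr18 a region sat on the TSS (43 bp inside), with a pooled signal of 58.1, 26.5 in replicate 1 and 33.7 in replicate 3. That was the highest region below the IDR list within 1 kb of a Dpr or DIP start that owned it. The 4 regions downstream of dpr18 belong by position to Nipsnap, with pooled signals up to 60.4. The single dpr13 region lies in its first intron, 12694 bp from the nearest TSS of the gene, with a pooled signal of 40.7, and was matched in replicate 3 alone (31.0). No region of any list lay in the windows of DIP-epsilon and DIP-zeta, whose TSSs are 44.8 and 54.5 kb from the nearest IDR summit.

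In the group of DIP-eta, DIP-theta and DIP-iota, which bind dpr1 to dpr5, 5 of 8 genes had a pooled region. Of the 32 genes 59.4% had one, and of all protein-coding genes 77.3%. The tallest region in any Dpr or DIP window is at DIP-iota, and it belongs by position to CG11050. It lies on 2L from 6612388 to 6612927 in an intron of CG11050, 4428 bp past the end of DIP-iota and 1019 bp from the CG11050 TSS. It ranked 3 in the pooled list with a signal of 1599, and had 722 in replicate 1 and 875 in replicate 3. The regions at the DIP-iota start were low. One 515 bp inside, in the first intron, had a pooled signal of 38.8 (15.7 in replicate 1 and 23.2 in replicate 3), and another 382 bp upstream had 23.9 and was in neither replicate list. A higher region 1110 bp upstream (72.3, matched in replicate 1 alone with 45.8) is 302 bp from the TSS of CG34345, and one in CG11050 had 54.7. At dpr1, whose mutants fail to avoid salt in the proboscis response, 1 region 540 bp upstream had a pooled signal of 23.4, matched in replicate 1 alone (12.4). At dpr3 a region 49 bp upstream had 23.4, matched in replicate 1 alone, and at dpr4 regions 576 and 1215 bp upstream had 44.8 and 36.7, both found in both replicates.

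At dpr2 the 450 bp upstream region had a pooled signal of 38.9, 19.4 in replicate 1 and 26.8 in replicate 3. The highest region in the dpr2 window had 75.7, the highest of all regions in these windows below the IDR list, but it lies 205 bp from the TSS of Tmem214. It had 55.1 in replicate 1 and 22.1 in replicate 3, and was among the 4492 highest of replicate 1. DIP-eta and DIP-theta, which lie 8344 bp apart, had 0 pooled regions, and 1 region each in a single replicate, 18.4 in replicate 3 and 24.4 in replicate 1. The small gene dpr5 had no region in any list, and its TSS is 39.0 kb from the nearest pooled summit.

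DIP-gamma and its partners dpr11, dpr15, dpr16 and dpr17, known from the pairing of dpr11 photoreceptors with DIP-gamma amacrine neurons of the medulla, held 3 pooled regions in 5 genes. Those at dpr11 lie 6326 and 14449 bp into its first intron with pooled signals of 21.7 and 23.5, near the floor of the list, and their nearest protein-coding start is that of CG2336. That at dpr17 had 28.5 and is 142 bp from the TSS of ATP8B. In replicate 3 alone, regions lay at the starts of dpr16 (28.6, rank 8874, 22 bp inside) and DIP-gamma (16.0, 247 bp upstream, and 14.6, 680 bp inside). Further dpr16 regions of replicate 3 had 24.1 in intron 2 and 12.5 at 2007 bp upstream. An intronic region at dpr15 was called in replicate 1 alone (19.4). None of these was called in the pooled data.

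In the DIP-beta group, dpr8 had 5 intronic regions over its 140 kb, of which the highest, 9442 bp and 124769 bp from the TSS, both had a pooled signal of 52.4. The first had 31.0 in replicate 1 and 22.3 in replicate 3, and the second 14.7 and 37.5. Of the 5 regions, 2 were nearest to the dpr8 TSS, the first of these highest among them. The others were nearest to that of CG9411, which is 33091 bp from the second. At dpr9 a region 25 bp inside the TSS had a pooled signal of 32.6 and was matched in replicate 3 alone (22.2). DIP-beta and dpr21 had no region in any list. DIP-delta had 1 region, 4922 bp past its end, with a pooled signal of 50.1 (16.7 in replicate 1 and 33.7 in replicate 3), and its partner dpr12 had none. On chromosome 4, dpr7, the partner of DIP-kappa, had 6 low regions within 5 kb, the highest 937 bp inside the gene with a pooled signal of 34.3. Of these 6, 3 were nearest to the dpr7 TSS and the others to that of RhoGAP102A. DIP-kappa had 0 pooled regions and 1 replicate 3 region (20.9) in intron 2. DIP-lambda, at 379 kb the longest of the genes, had no region, and the nearest pooled summit to its TSS is 3616 kb away. It lies on 2R from 326768 to 705848, and dpr21 from 3066499 to 3191011, so that distance takes in dpr21 too. The whole stretch held no pooled region, so the lack of regions is not particular to these genes.

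Seen by promoters, 13 of the 32 genes owned a pooled summit within 1 kb of a TSS, meaning that no other protein-coding TSS was closer. That is 40.6%, against 49.4% of all genes and 74.1% of genes of 20 kb or more. These were dpr1, dpr2, dpr3, dpr4, dpr6, dpr7, dpr9, dpr10, dpr18, dpr19, dpr20, DIP-alpha and DIP-iota. At dpr20 alone the summit was an IDR peak, and at the others the pooled signals ran up to 58.1. The region at dpr19 lies 401 bp inside the gene and had 36.5 in the pooled list, 19.2 in replicate 1 and 14.5 in replicate 3. In total 13 genes (40.6%) had no pooled region in the window, against 22.7% of all genes and 9.48% of genes of 20 kb or more. Of the 13, 6 had a region in 1 replicate list and 7 in neither (DIP-beta, DIP-epsilon, DIP-lambda, DIP-zeta, dpr5, dpr12 and dpr21).

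Other families of cell surface proteins and guidance genes were counted in the same way, in lists chosen with earlier results known. The Beat proteins are immunoglobulin proteins that bind the Side family on other cells, in the manner of Dpr and DIP. Of 14 beat genes, with a median span of 36.9 kb, 2 (14.3%) had an IDR peak in the window, near the 15.6% of Dpr and DIP genes. These were beat-Ib (234, nearest to CG13244) and beat-VII (119, nearest to Tb), and no beat gene had an IDR summit at most 1 kb from a TSS. Of 8 side genes 3 (37.5%) had an IDR peak in the window, and those at side-IV (163) and side (160) were nearest to these genes. Of other adhesion genes, 13 of 23 (56.5%) had one, among them Ptp10D (143) and Nrg (138), both nearest to the gene itself, as well as kirre (285, nearest to Syx4) and wrapper (158, nearest to Rtf1). Of 16 axon guidance genes, 9 (56.2%) had one, among them sli (136), robo2 (135) and unc-5 (125) each nearest to its own TSS, and robo1 (121, nearest to Ppa). These values are pooled signals. The shares of the adhesion and guidance lists lie between those of all genes (50.2%) and of genes of 20 kb or more (63.5%). The median spans of their genes are 51.0 and 34.2 kb. An IDR summit at most 1 kb from a TSS was found for 9 of 23 adhesion genes (39.1%) and 7 of 16 guidance genes (43.8%). It was found for 0 of 14 beat genes, 0 of 8 side genes and 3 of 32 Dpr and DIP genes. Of all genes 25.9% had one, and of genes of 20 kb or more 41.2%. The lists are small, and the differences between them were not tested.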

How the data were processed

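Groucho ChIP-seq regions from 2 biological replicates of 1 group (gro-GFP embryos) were analysed. Per the manifest deposited by the authors, regions were called from each replicate's alignment and from both pooled, with a control alignment that was not used here, and IDR peaks were derived from these lists. The aligner, peak caller, settings and IDR threshold were not given in the sources used here. Column 7 of the deposited lists holds the authors' signal per region, and column 9 the −log10 of a q value as deposited, which was not used. Files in dm3 were not used.

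Gene models came from Ensembl release 115 and sequences from the RefSeq Release 6 genome, which is dm6; no region ran past an arm's end. Genes off the 6 main arms were left out. A region was in a window on an overlap of at least 1 bp, and TSSs were those of all annotated transcripts. The replicate signal of a pooled region is that of the highest overlapping replicate region, so neighbouring pooled regions can share it. Values are mean ± SD of 2 replicates. With 1 group no test between samples was possible, and the same counts over all protein-coding genes stand beside those of the 32 genes. Genes of 20 kb or more as a background, and the values by family without dpr21 or DIP-lambda or from 1 replicate list, were added after seeing the data. The members and lists were chosen with earlier results of these data known. Every member is named; neighbours are named as owners of the nearest TSS, and at most the 4 highest genes per comparison list. Groups by Dpr and DIP binding are background knowledge. Within 100 bp of each summit, 12 consensus motifs were sought on both strands. Printed sequences were limited to stretches free of annotated exons. The counting was tested on planted regions. Python 3.11.15, numpy 2.4.6, pandas 2.3.3 and matplotlib 3.10.9 were used.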

Additional observations from a re-analysis of the deposited data

How the results depend on the processing

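Counts of Dpr and DIP genes or peaks that moved by over 1.5 times, and densities that moved by more than the replicate SD, were these. The 5 genes with an IDR peak in the window became 1 with no flank (DIP-alpha, against 23.4% of all genes). They became 2 by the nearest protein-coding TSS, against 22.5% of all genes. The 8 IDR peaks became 1 with no flank, 4 with 1 kb, 13 with 10 kb and 5 among the 50% of IDR peaks with the higher signal. Among those, 1 of the 3 genes with a summit near a TSS (within 1 kb) was left. Changes of flank or a shorter list move such counts for any genes. With 1 kb, 10 kb and the shorter list, 4, 6 and 4 genes had an IDR peak in the window. Of all genes 32.6, 62.2 and 34.1% did. The 4.69 pooled regions per 100 kb became 2.66 with no flank, 3.41 with 1 kb, 5.28 with 10 kb and 6.49 without DIP-lambda and dpr21, a setting added after seeing the data. No density over all genes is given for the other flanks. In lists of a single replicate, with as many top regions as the IDR list, 5 to 6 genes had a peak in the window, against 50.1% of all genes. A summit near a TSS (within 1 kb) was found for 2 to 3, against 25.4 to 25.5% of all genes, and 8 to 10 peaks lay in the windows. Without replicate 1 dpr6 entered, and without replicate 3 dpr20 left and dpr2 entered. The full replicate lists gave 19 to 22 genes with a region, against 78.9 to 80.5% of all genes, and 4.85 to 5.54 regions per 100 kb. The median rank of each gene's highest region, 9622 in the pooled list, was 8810 to 9116 in the replicate lists. Of 5 genes with an IDR peak, the highest region changed rank most at dpr20. No paired analysis was possible because the series has 1 group. With 2 replicates and unknown depth, regions below the lists' floors were not detectable.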

Other observations

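Over all 89 pooled regions in the Dpr and DIP windows, the consensus letters searched were counted beside the 30000 pooled regions. GAGAG was present in 18 windows (20.2%) against 25.3%, AGATAA in 13 (14.6%) against 13.2%, TGGGAA in 10 (11.2%) against 11.7% and CACACA in 14 (15.7%) against 19.6%. The letters TGTGGT of the Runt core were in 5 (5.62%, against 8.28%) and TTCAAAG of Tcf in 5 (5.62%, against 4.12%). CACGTG and CACGCG, bound by Hairy and E(spl) proteins, were in 2 and 3 (2.25 and 3.37%, against 2.71 and 5.48%). GGCGCC was in 3 (3.37%, against 3.43%), TATCGATA, the DRE, in 3 (3.37%, against 2.43%), GGTCACAC, the M1BP site, in 1 (1.12%, against 1.89%) and CAGGTAG, the Zelda site, in 0 (against 0.970%). The median GC content was 38.8% against 40.3%. No test was made, and a match is not a bound site.

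Inside the 540 bp peak beside DIP-iota, the exon-free stretch around the summit is 140 bp long with a GC content of 22.1%, and it holds 0 of the 12 motifs.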
